A study of Schizosaccharomyces pombe with 6 samples.

Results

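The genes described here encode the mitochondrial respiratory chain and the ATP synthase of the fission yeast Schizosaccharomyces pombe, together with proteins that help to assemble them. Members were taken by name from the deposited gene annotation. A gene was included if its name was cox, atp, qcr or sdh followed by digits only, or was rip1, cyt1, cyc1, cob1 or nde1. This gave 60 of the 6291 counted genes, 53 in the nucleus and 7 in mitochondrial DNA. Of the nuclear genes, 35 encode subunits, cytochrome c or the NADH dehydrogenase nde1, and 18 were classed as genes of assembly proteins. Another 6 names with a suffix, which are intron-encoded genes and antisense RNAs, were not counted as members.

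All 6 RNA-seq libraries came from 1 strain, nup211-so, whose genotype is nup211::P81nmt1 ura4+ with leu1-32, ura4-D18, ade6-M210 and mating type h+. In it, the P81nmt1 promoter, which thiamine represses, was placed before nup211, the gene of an essential nuclear pore protein. The no thiamine group comprised 3 cultures in EMM with adenine and leucine, and the thiamine group comprised 3 cultures in the same medium with 30 µM (10 µg/mL) thiamine, grown for 24 hours, washed, and grown for 24 hours more. Both groups carry the same alleles, and no strain with its own nup211 promoter was used here, so that the effect of thiamine itself and that of repressing nup211 cannot be told apart.

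The respiratory chain passes electrons from NADH and succinate through ubiquinone, complex III and cytochrome c to complex IV, which reduces oxygen. Fission yeast has no proton-pumping complex I and oxidizes NADH with single-protein dehydrogenases. Complexes III and IV pump protons across the inner membrane, and the ATP synthase lets them return through its Fo part while its F1 part makes ATP. Most subunits are encoded in the nucleus and imported, whereas a few hydrophobic core subunits of complexes III and IV and of Fo are made inside the mitochondrion.

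Library totals ranged from 37195197 to 48815139 counts, and ribosomal RNA genes took 41.2% to 49.0% of the counts in the no thiamine libraries and 46.3%, 28.7% and 24.6% in thiamine replicates 1, 2 and 3. Levels are given as CPM, counts scaled to a common library size of 1000000 after TMM adjustment of the library sizes. A gene was called changed when the edgeR quasi-likelihood test gave an adjusted p (Benjamini-Hochberg over all tested genes) below 0.05. nmt1, the gene whose promoter family drives the construct, had 1631, 2061 and 1858 counts without thiamine and 0, 3 and 2 with it. The nup211 mRNA itself was at 12.4, 15.4 and 13.7 CPM without thiamine and 13.2, 11.5 and 12.1 CPM with it, a log2 fold change of -0.17 ± 0.11 (SE, edgeR adjusted p = 0.199, n = 3 per group), and the groups overlapped. The annotation places other genes over 87.0% of nup211.

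Sequences upstream of 4 nuclear members are shown because these genes moved in opposite directions and carry the pentamer CCAAT, the core bound by the Php complex, which regulates respiratory genes in yeasts. Each is the 250 bases before the annotated RefSeq gene start (ASM294v3), written 5′ to 3′ on the strand of the gene, with CCAAT or its reverse complement ATTGG in capitals.
cyc1 (chromosome III, 1714372 to 1714621, plus strand): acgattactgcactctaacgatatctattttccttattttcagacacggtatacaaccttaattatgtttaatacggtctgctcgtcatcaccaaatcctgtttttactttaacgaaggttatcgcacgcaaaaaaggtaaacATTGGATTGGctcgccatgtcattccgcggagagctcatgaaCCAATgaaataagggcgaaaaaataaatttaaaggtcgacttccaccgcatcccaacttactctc
cyt1 (chromosome II, 2072986 to 2073235, plus strand): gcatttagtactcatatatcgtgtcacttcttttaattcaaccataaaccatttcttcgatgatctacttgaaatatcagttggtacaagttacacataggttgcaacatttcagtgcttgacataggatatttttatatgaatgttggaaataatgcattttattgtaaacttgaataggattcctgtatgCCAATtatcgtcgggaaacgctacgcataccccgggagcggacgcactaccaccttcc
qcr6 (chromosome II, 4345542 to 4345791, minus strand): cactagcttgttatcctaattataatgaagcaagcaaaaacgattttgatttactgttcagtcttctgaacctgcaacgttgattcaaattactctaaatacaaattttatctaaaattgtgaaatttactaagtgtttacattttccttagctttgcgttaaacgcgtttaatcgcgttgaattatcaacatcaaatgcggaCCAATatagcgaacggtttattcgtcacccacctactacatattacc
atp2 (chromosome I, 970401 to 970650, minus strand): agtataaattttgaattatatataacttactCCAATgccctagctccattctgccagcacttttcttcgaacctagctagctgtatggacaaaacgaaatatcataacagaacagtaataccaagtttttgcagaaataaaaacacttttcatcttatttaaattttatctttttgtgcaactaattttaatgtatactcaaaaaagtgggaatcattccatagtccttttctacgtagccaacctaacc

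The cyc1 window held 3 matches, which began 107, 102 and 65 bases before the gene start, and the first of them adjoined the second. The others held 1 match each, at 58 bases for cyt1, 47 for qcr6 and 219 for atp2. In the deposited annotation qcr6 starts further upstream than in RefSeq, at 4345608 against 4345541, so its match lies inside the deposited gene. Searched on both strands, CCAAT occurred in 27 of the 53 nuclear members' windows (50.9%) and in 35.3% of the 5038 windows of protein-coding genes. It occurred in 13 of the 28 members called lower (46.4%) and in 12 of the 22 that were not called (54.5%). By complex, it was most frequent upstream of complex III genes (7 of 9) and less so upstream of complex IV genes and their assembly genes (6 of 18). The near-identical copies cox1101 and cox1102 have the same 2 matches, at 30 and 22 bases, and were each counted. RefSeq starts cox1101, cox1102 and cox8 at their coding sequence, so their windows are not placed from a transcript start. Windows that overlap a neighbouring gene were kept, and a match describes letters only. Deposited starts lie upstream of RefSeq starts for other members too, such as cox6 and atp12, and the windows were not adjusted for this.

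With thiamine, the nuclear members were lower as a list, with marked exceptions. Of the 53 nuclear members, all of which were tested, 28 (52.8%) were called lower, 3 were called higher and 22 were not called. Across all 5434 tested genes, 35.3% were called lower and 34.5% higher, and 69.8% were called in either direction. The median log2 fold change of the nuclear members was -0.41, beside -0.01 for all tested genes, and 42 of the 53 were below 0. In CPM after TMM, every thiamine library lay below every no thiamine library in 30 of the 53 nuclear members and in 38.2% of all tested genes. Every thiamine library lay above in 3 of the 53 and in 37.3% of all tested genes. Falls of at least 2-fold were called in 9 nuclear members, and no member was called with a rise of that size, against 13.6% and 16.4% of all tested genes. Subunit genes (19 of 35 lower) and assembly genes (9 of 18 lower) had like shares of calls.

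The calls, and whether the groups overlapped, depended on how library sizes were scaled. Dividing by library totals alone, which include the rRNA counts, raised the median of all tested genes to 0.57. Then 8 nuclear members were called lower and 11 higher, beside 588 lower and 2724 higher of all 5434 tested genes. With library totals the groups of sdh1, nde1, qcr1 and atp20 overlapped, while those of atp2, cyt1, qcr2 and qcr6 still did not. Upper quartile scaling lowered the median of all tested genes to -0.31. Then 40 nuclear members were called lower and 1 higher, beside 2583 lower and 1368 higher of all tested genes. Measured from the median over every tested gene, the nuclear members stood at -0.40 with TMM and -0.41 with library totals. cox24, atp2, atp20, atp11, qcr6, cyt1, cox12 and qcr2 were called lower under TMM and under all 16 other settings tried, and cyc1 was called higher under all of them.

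**Figure D1:**
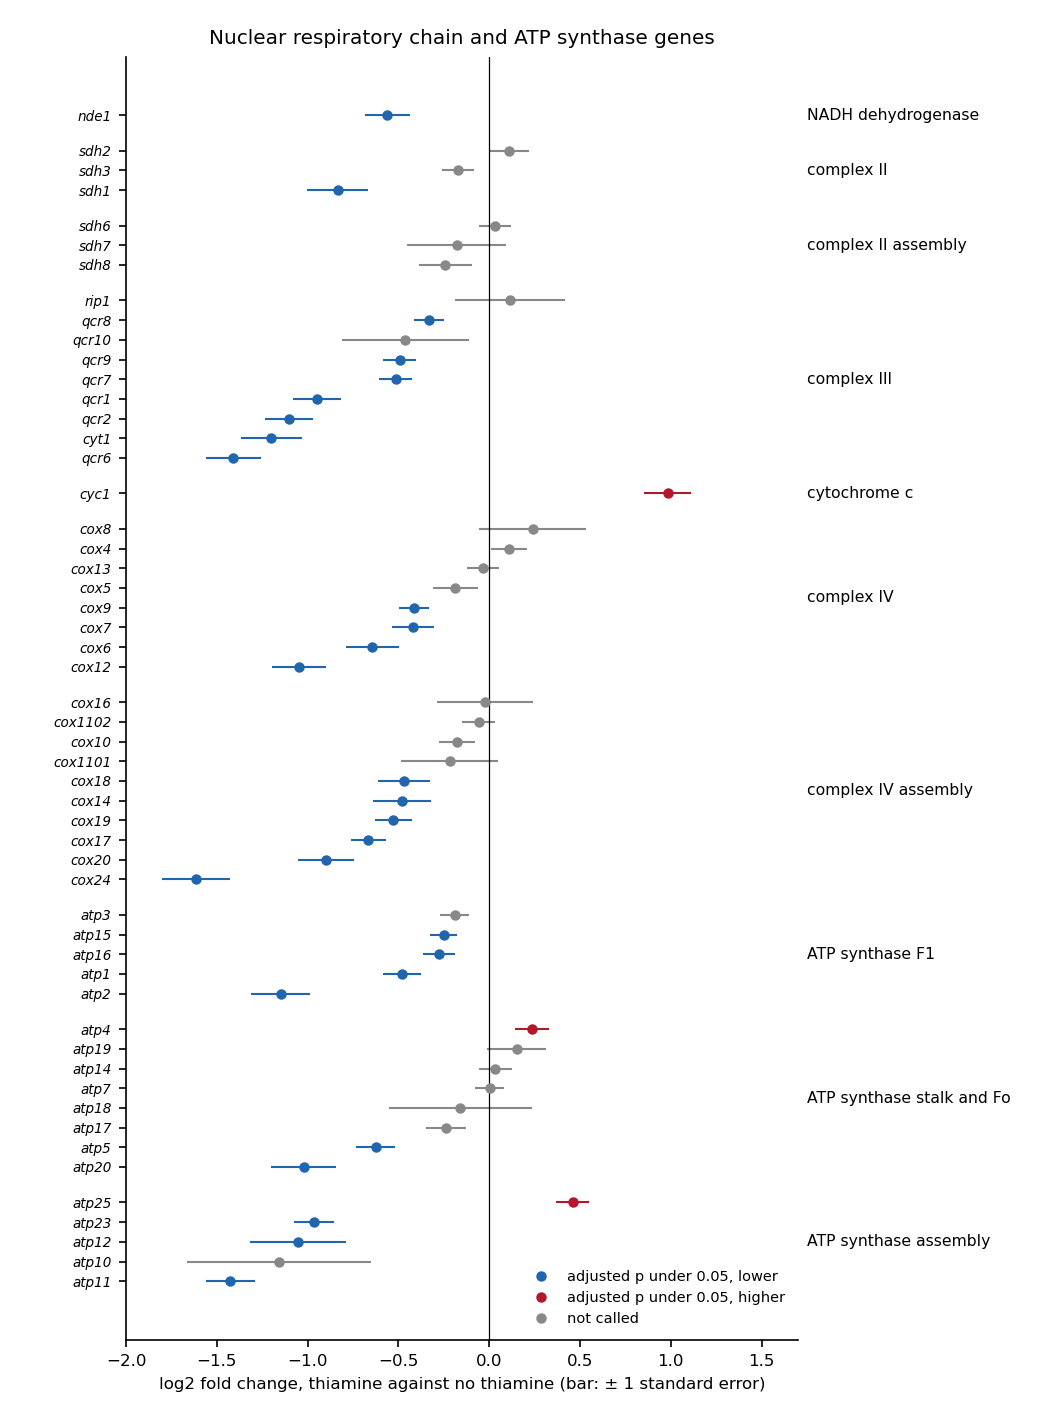
Log2 fold change (x axis, thiamine against no thiamine, TMM) of each of the 53 nuclear members, grouped by complex, with bars of ± 1 standard error and colours for the edgeR call. The 28 members called lower are spread over every group except the complex II assembly proteins and cytochrome c, and cyc1 stands alone at 0.98.

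Among the genes through which electrons enter the chain, nde1 and 1 of 3 complex II subunits were called lower. nde1, the NADH dehydrogenase that faces the intermembrane space in yeasts, was at 379, 423 and 310 CPM without thiamine and 246, 259 and 249 CPM with it. The groups did not overlap, and the log2 fold change was -0.56 ± 0.12 (edgeR adjusted p = 0.0034). It was 0.011 when library totals were used. sdh1, the flavoprotein of succinate dehydrogenase, went from 851, 971 and 863 CPM to 552, 578 and 376 CPM, a log2 fold change of -0.83 ± 0.17 (edgeR adjusted p = 0.00212). sdh2, the iron-sulfur subunit that works beside it in the same complex, was at 324, 339 and 325 CPM without thiamine and 380, 375 and 310 CPM with it. Its groups overlapped (log2 fold change 0.11 ± 0.11, edgeR adjusted p = 0.399). The membrane anchor sdh3 had non-overlapping groups but was not called (-0.17 ± 0.09, edgeR adjusted p = 0.11). The assembly genes sdh6, sdh7 and sdh8 were not called, with log2 fold changes from -0.24 to 0.03. Within a library, the ratio of sdh1 to sdh2 CPM was 2.63, 2.86 and 2.66 without thiamine and 1.45, 1.54 and 1.21 with it. This ratio does not depend on the scaling of libraries, and the pair was picked after its values were seen.

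In complex III, 7 of 9 nuclear subunit genes were called lower, with a median log2 fold change of -0.52 over the 9. The largest fall was that of qcr6 (SPBC16C6.08c, chromosome II, 4344357 to 4345608), the acidic hinge protein that sits by cytochrome c1. It was at 349, 383 and 353 CPM without thiamine and 152, 153 and 104 CPM with it, 2.65-fold lower (log2 fold change -1.41 ± 0.15, edgeR adjusted p = 5.47e-05). cyt1, cytochrome c1 itself, fell from 472, 494 and 451 CPM to 230, 235 and 151 CPM (-1.20 ± 0.17, edgeR adjusted p = 0.000239). In both genes thiamine replicates 1 and 2 were close together and replicate 3 was the lowest. Replicate 3 was the lowest thiamine library in 23 of the 28 members called lower. How often it was the lowest over all genes called lower was not counted, so this is not read as particular to the members. Replicate 3 also had the lowest rRNA share, 24.6%, and the part of that share in these values was not tested. With thiamine replicates 2 and 3 left out, a setting added after the data were seen, 22 of the 28 were still called lower. The 1 thiamine library then left is assumed to vary as the no thiamine libraries do.

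The core proteins qcr1 and qcr2 fell by 0.95 ± 0.13 and 1.10 ± 0.13 on the log2 scale, and the small subunits qcr7, qcr8 and qcr9 fell by 0.52, 0.33 and 0.49. The gene mcm3 covers 72.5% of qcr9. With library totals, qcr2 was still called lower and qcr1 was not. rip1, the Rieske iron-sulfur protein, was the only nuclear subunit of complex III with a positive estimate. It was at 2.60, 3.08 and 1.91 CPM without thiamine and 2.28, 4.02 and 1.96 CPM with it (0.11 ± 0.30, edgeR adjusted p = 0.749). It lies wholly inside the annotated span of ppa2, as do all bases of qcr10 inside other genes, and both had few counts (66 to 193 for rip1). Per kilobase of transcript, rip1 had 1.95 CPM where cyt1 had 336 CPM in the no thiamine group. The level of rip1 is therefore uncertain, because how the counting treated overlapping genes is not given in the sources used here. The same holds for other thinly counted members: 10 nuclear members stayed below 5 CPM in every library, and other genes cover more than 50% of 8 of these 10.

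cyc1 (SPCC191.07, chromosome III, 1714660 to 1715798 in the deposited annotation), the gene of cytochrome c, was called higher, against the 7 complex III genes called lower. It was at 388, 469 and 413 CPM without thiamine and 854, 917 and 737 CPM with it, 1.98-fold higher (log2 fold change 0.98 ± 0.13, edgeR adjusted p = 0.000158). The groups did not overlap, and no other annotated gene overlaps cyc1. The ratio of cyc1 to cyt1 CPM was 0.823, 0.948 and 0.916 without thiamine and 3.71, 3.90 and 4.88 with it. Cytochrome c carries electrons from cytochrome c1 to complex IV, so these are the genes of direct partners. This ratio was not among the planned results. Their upstream windows, printed above, both hold CCAAT, but they were chosen for printing because they do.

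**Figure D2:**
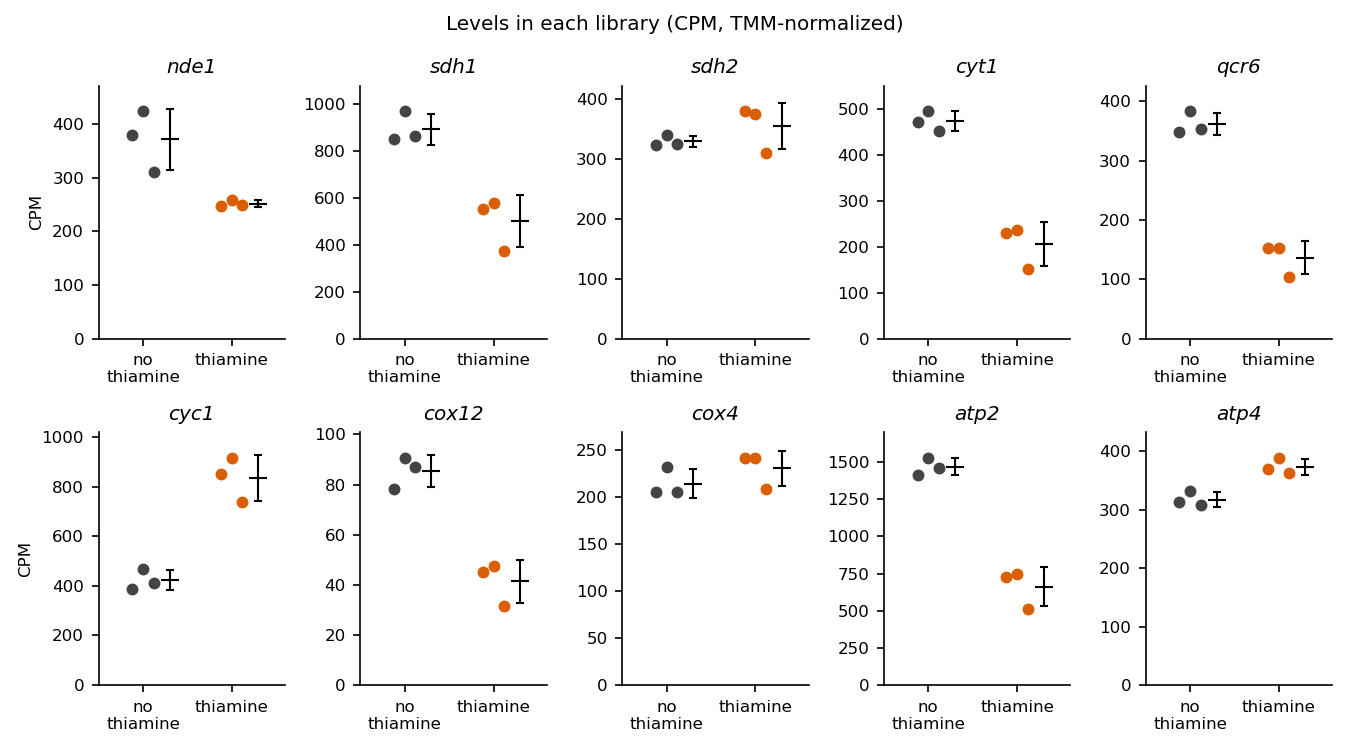
CPM (y axis, TMM-normalized, starting at 0) of 10 nuclear members in each library; points are replicates 1 to 3 from left to right, and the horizontal mark with its bar is the mean ± SD of 3 libraries. cyc1 is higher in every thiamine library, qcr6, cyt1, sdh1, atp2 and cox12 are lower in every thiamine library, and sdh2 and cox4 overlap between the groups.

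Complex IV was divided. Of its 8 nuclear subunits, cox12, cox6, cox7 and cox9 were called lower, and cox4, cox5, cox8 and cox13 were not called. cox12, a small subunit on the intermembrane space side, was at 78.4, 90.7 and 87.1 CPM without thiamine and 45.2, 47.3 and 31.5 CPM with it (log2 fold change -1.05 ± 0.15, edgeR adjusted p = 0.000262). cox6, cox7 and cox9 fell by 0.64, 0.42 and 0.41 on the log2 scale. All 3 were called lower under upper quartile scaling too, but with library totals cox7 was at 0.14 and cox9 at 0.16. cox4 and cox13, by contrast, were at 214 ± 15.4 (SD) against 230 ± 18.8 CPM and at 212 ± 12.6 against 207 ± 8.54 CPM. cox8 had the highest estimate of the subunits, with 33, 43 and 32 counts without thiamine and 59, 70 and 42 with it, 0.24 ± 0.29 after scaling (edgeR adjusted p = 0.488), and other genes cover 88.3% of it.

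Among the 10 assembly genes of complex IV, 6 were called lower and none higher. cox24 (SPAC1782.04, chromosome I, 4763020 to 4764222) had the largest fall of all 53 nuclear members under TMM. The annotation describes cox24 as a mitochondrial mRNA processing protein, although it was counted here with the assembly genes. It was at 52.8, 53.5 and 49.3 CPM without thiamine and 17.8, 21.4 and 11.7 CPM with it, 3.06-fold lower (log2 fold change -1.61 ± 0.19, edgeR adjusted p = 8.31e-05). cox17, which carries copper for the copper centres, and cox19, a related small protein, fell by 0.67 and 0.53. cox20 and cox18, which act on Cox2 in budding yeast, fell by 0.90 and 0.47, and cox14 fell by 0.48. cox10, which makes heme O for complex IV, was not called (-0.18 ± 0.10, edgeR adjusted p = 0.133), and neither was cox16.

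cox1101 and cox1102 are named after the copper chaperone Cox11, and what else their products hold was not examined. They are 99.9% identical over 2338 bases, so their reads can be split between them in ways the counts do not show. cox1101 had 47, 57 and 31 counts without thiamine and 43, 59 and 54 with it, whereas cox1102 had 2219, 2421 and 2108 counts without it and 3084, 2862 and 2814 with it. Neither was called. Summed, the pair was at 61.9 ± 2.88 CPM without thiamine and 59.4 ± 5.66 CPM with it (SD, n = 3 each), and these ranges overlap.

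The F1 part of the ATP synthase, the catalytic head, fell in 4 of 5 subunit genes but unevenly. atp2 (SPAC222.12c, chromosome I, 968507 to 970412), the catalytic beta subunit, was the most abundant member per kilobase in the no thiamine group, at 771 CPM per kilobase. It was at 1415, 1530 and 1464 CPM without thiamine and 730, 747 and 510 CPM with it (log2 fold change -1.15 ± 0.16, edgeR adjusted p = 0.000246). Its partner in the hexamer, the alpha subunit atp1, fell less, from 766 ± 38.4 to 550 ± 26.8 CPM (SD), a log2 fold change of -0.48 ± 0.10 (edgeR adjusted p = 0.00305). Other genes cover 52.8% of atp1, and its estimate was 0.10 with library totals. The delta and epsilon subunits atp16 and atp15 fell by 0.28 and 0.25. atp3, the gamma subunit of the rotor, went from 146, 158 and 149 CPM to 134, 136 and 125 CPM. Its groups did not overlap, but it was not called (-0.19 ± 0.08, edgeR adjusted p = 0.0548).

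In the stalks and Fo, 2 of 8 nuclear genes were lower, 1 was higher and 5 were not called. atp20, the subunit g that is part of the dimer interface, went from 88.3, 89.5 and 81.2 CPM to 49.5, 48.4 and 29.6 CPM (log2 fold change -1.02 ± 0.18, edgeR adjusted p = 0.000845). atp5, the subunit OSCP that joins the stalk to F1, fell by 0.62 ± 0.11. atp4, the peripheral stalk subunit b, was at 313, 331 and 308 CPM without thiamine and 370, 389 and 362 CPM with it. Its groups did not overlap, and its rise of 0.24 ± 0.09 was called only narrowly (edgeR adjusted p = 0.0463). Under upper quartile scaling it was at -0.058. atp7, atp14, atp17, atp18 and atp19 had log2 fold changes from -0.24 to 0.15. The ratio of atp2 to atp4 CPM in a library went from 4.52, 4.62 and 4.76 to 1.97, 1.92 and 1.41, another pair picked after its values were seen.

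The 5 assembly genes of the ATP synthase had a median log2 fold change of -1.05, beside -0.24 for its 13 nuclear subunit genes, with 3 called lower and 1 higher. That median of 5 is the estimate of atp12 itself. Other genes cover more than 50% of 3 of these 5 genes and of 3 of the 13 subunit genes. atp11, the chaperone that binds the beta subunit, was at 15.4, 15.2 and 15.1 CPM without thiamine and 6.69, 5.58 and 4.73 CPM with it (log2 fold change -1.43 ± 0.14, edgeR adjusted p = 2.51e-05). atp12, the chaperone of the alpha subunit, fell by 1.05 ± 0.26 from a level near 2.05 CPM, and another gene covers 69.0% of it. The metalloprotease atp23 fell by 0.97 ± 0.11. atp10 had a similar estimate, -1.16 ± 0.51, but under 1 CPM in every library it was not called (edgeR adjusted p = 0.0683). The gene gos1 covers 90.6% of atp10. atp25 went the other way, from 35.5, 31.0 and 32.3 CPM to 48.2, 46.2 and 41.5 CPM (0.46 ± 0.09, edgeR adjusted p = 0.00182). The gene dbp10 and atp25 overlap over 55.4% of atp25, and after removal of a trend with transcript length its estimate was -0.012.

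**Figure D3:**
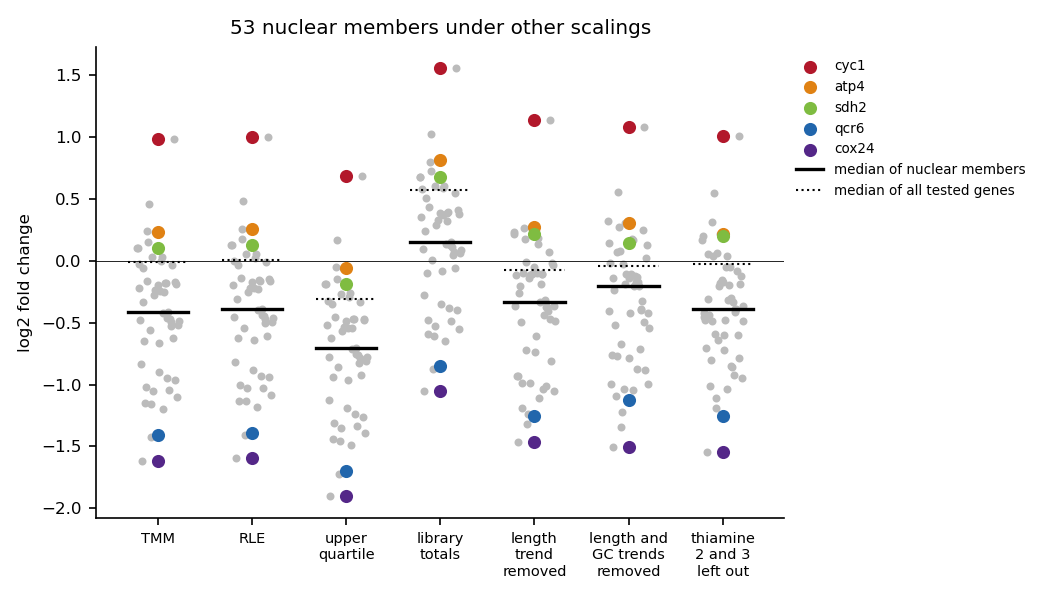
Log2 fold changes (y axis) of the 53 nuclear members as grey points under 7 settings (x axis), with 5 genes coloured; the solid line is the median of the members and the dotted line the median of all tested genes. The members' median lies below that of all tested genes under each setting shown, while library totals move both upward and upper quartile scaling moves both downward.

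The size of the list's difference changed when trends with transcript length and GC content were removed. What lies behind these trends was not tested. Nuclear members had a median transcript length of 1139 bases, and all counted genes 1669 bases. Measured from that same overall median, the members stood at -0.26 after removal of the trend with length and at -0.17 after removal of the trends with length and GC content. Of the 28 members called lower, 26 and 24 were still called lower under these settings.

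The mitochondrial members all had positive estimates, but their libraries scattered and edgeR called 0 of the 6 tested. Of these, 1 had an unadjusted p below 0.05, and DESeq2 called 1, cox2. cox1, a core subunit of complex IV, had 54, 47 and 144 counts without thiamine and 388, 130 and 84 with it (log2 fold change 0.85 ± 0.64, edgeR adjusted p = 0.263). cox2 had 23, 13 and 50 counts and then 186, 62 and 68 (1.43 ± 0.59, edgeR adjusted p = 0.0573), and cox3 had 9, 7 and 49 and then 127, 36 and 33 (1.13 ± 0.81, edgeR adjusted p = 0.237). The CPM ranges of the groups overlapped in all 3 genes.

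cob1, cytochrome b of complex III, had 5, 15 and 36 counts without thiamine and 56, 33 and 21 with it (0.52 ± 0.64, edgeR adjusted p = 0.49), and an intron-encoded gene covers 65.7% of its span. Of the Fo subunits, atp9, which forms the rotor ring, had 40, 15 and 74 counts and then 302, 131 and 45 (1.46 ± 0.73, edgeR adjusted p = 0.104). atp6 had 2, 4 and 12 counts and then 21, 12 and 6 (0.67 ± 0.72, edgeR adjusted p = 0.432). atp8 had 0, 0 and 1 counts and then 7, 2 and 2, too few to be tested.

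In the sum of the 7 genes, no thiamine replicate 3 and thiamine replicate 1 stood highest in their groups. The sums were 3.46, 2.64 and 10.6 CPM without thiamine and 22.3, 8.45 and 4.80 CPM with it. The 2 mitochondrial ribosomal RNAs, rnl and rns, had the same high libraries, at 57.2, 52.6 and 150 CPM and then 241, 91.5 and 73.2 CPM. Per 100 mitochondrial rRNA counts, the members had 6.05, 5.02 and 7.06 counts without thiamine and 9.26, 9.23 and 6.56 with it, and these ranges overlap. Libraries were made from poly(A)-selected RNA, and mitochondrial mRNAs of this yeast lack the long tails of nuclear ones. The part of that selection, and of any difference in total RNA between libraries, was not tested. Without no thiamine replicate 3, 2 mitochondrial members were called, and with library totals 5 were.

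**Figure D4:**
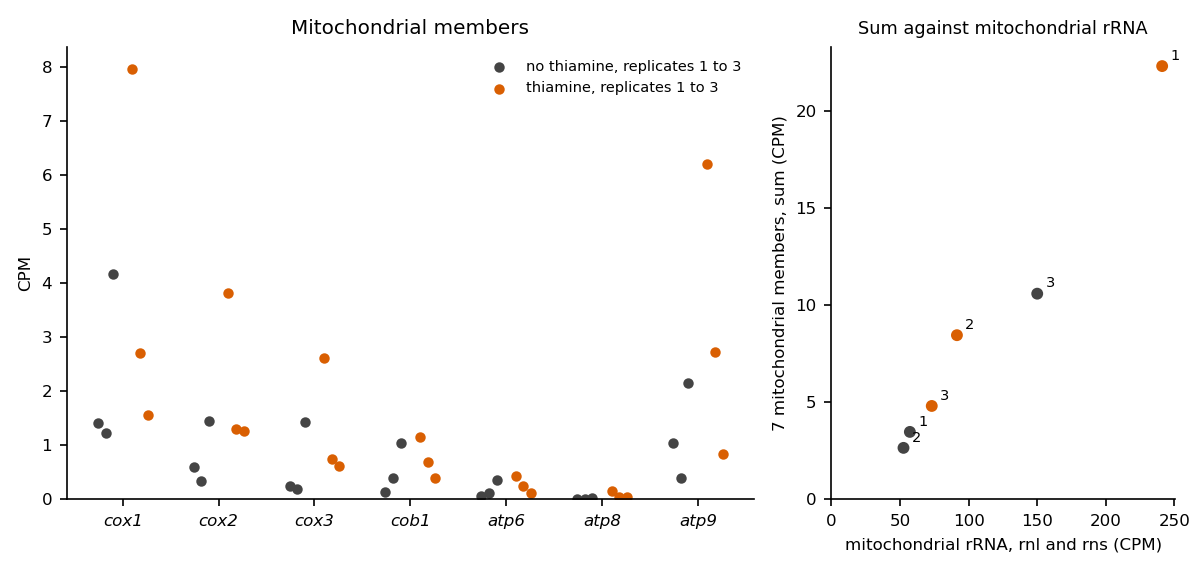
Left, CPM (y axis) of the 7 mitochondrial members in each library; right, their sum (y axis, CPM) against that of the mitochondrial rRNAs rnl and rns (x axis, CPM), with replicate numbers beside the points. Thiamine replicate 1 is the highest point in both panels, and the groups overlap in the sum, with no thiamine replicate 3 at 10.6 CPM above thiamine replicates 2 and 3.

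Other genes of respiration were read from the same fit in 4 lists drawn from general knowledge of yeast, of which 58 genes were found in the count table and 52 were tested. Of these, 24 were called lower and 18 higher, beside 35.3% and 34.5% of all tested genes. With library totals, 5 of the 52 were called lower and 23 higher, beside 588 lower and 2724 higher of all 5434 tested genes.

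Ubiquinone carries electrons from the dehydrogenases to complex III, and all 11 tested genes of its synthesis and of electron entry were called lower with TMM. With library totals 4 of the 11 were still called lower and none higher, and the estimates of coq3, coq9 and coq10 turned positive. Estimates ran from -0.44 for coq3 to -4.70 for gut2. coq3, a methyltransferase of ubiquinone synthesis, was at 37.9, 38.0 and 42.1 CPM without thiamine and 32.0, 32.0 and 22.9 CPM with it (edgeR adjusted p = 0.0154), and it was at 0.12 with library totals. gut2, the mitochondrial glycerol-3-phosphate dehydrogenase, had only 2.21, 2.90 and 2.34 CPM and then 0.103, 0.125 and 0.0556 CPM (edgeR adjusted p = 4.44e-06). An antisense RNA covers the whole span of gut2. Its systematic name, SPCC1223.03c, follows that of nmt1, SPCC1223.02, whose counts fell to 0, 3 and 2 with thiamine. Whether the loss of nmt1 transcription bears on the gut2 counts was not tested. ppt1, which joins the polyprenyl tail to the ring and was named after its values were seen, went from 53.8, 55.2 and 54.9 CPM to 17.0, 15.4 and 8.86 CPM (-1.99 ± 0.21, edgeR adjusted p = 4.39e-05).

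Assembly factors outside the name rule were mixed, 9 of 19 tested being lower and 6 higher. cbp3, which acts on cytochrome b synthesis and assembly in budding yeast, fell from 59.7, 64.2 and 57.5 CPM to 20.6, 20.5 and 15.0 CPM (-1.70 ± 0.13, edgeR adjusted p = 7.11e-06). oxa102, one of a pair of Oxa1-type inner membrane insertases, rose from 29.9, 29.9 and 31.8 CPM to 58.5, 59.9 and 67.6 CPM (1.02 ± 0.08, edgeR adjusted p = 1.14e-05). inh1, an inhibitor of the ATP synthase's reverse reaction that was also named after its values were seen, rose by 0.68 ± 0.10 (edgeR adjusted p = 0.000331).

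Genes for the expression of mitochondrial DNA were mixed as well, 8 of 18 being higher and 4 lower. ppr5, a pentatricopeptide repeat protein, was at 85.9, 78.6 and 81.4 CPM without thiamine and 513, 519 and 519 CPM with it (2.66 ± 0.09, edgeR adjusted p = 2.19e-07). This was the largest rise in the 4 lists, with close replicates in both groups. ppr2, of the same protein family, fell from 15.3, 12.2 and 11.8 CPM to 7.45, 7.22 and 4.80 CPM (-1.01 ± 0.18, edgeR adjusted p = 0.00113). The mitochondrial RNA polymerase rpo41 was not called, at 16.5 ± 0.986 and 16.9 ± 1.07 CPM (SD; edgeR adjusted p = 0.73).

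All 4 genes of the CCAAT-binding Php complex were called higher, beside 34.5% of all tested genes. They were also called higher with library totals, where 2724 of all 5434 tested genes were. With upper quartile scaling 3 of them were called higher, beside 1368 of all 5434. php3 had the largest rise, from 54.9, 51.4 and 48.3 CPM to 86.6, 85.9 and 109 CPM (0.86 ± 0.11, edgeR adjusted p = 0.000132), and php5 the smallest, from 130, 122 and 121 CPM to 163, 175 and 194 CPM (0.51 ± 0.09, edgeR adjusted p = 0.00095). php4, the subunit that makes the complex a repressor when iron is scarce, rose by 0.75 ± 0.11 and php2 by 0.55 ± 0.13. Other annotation covers 61.3% of php2.

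**Figure D5:**
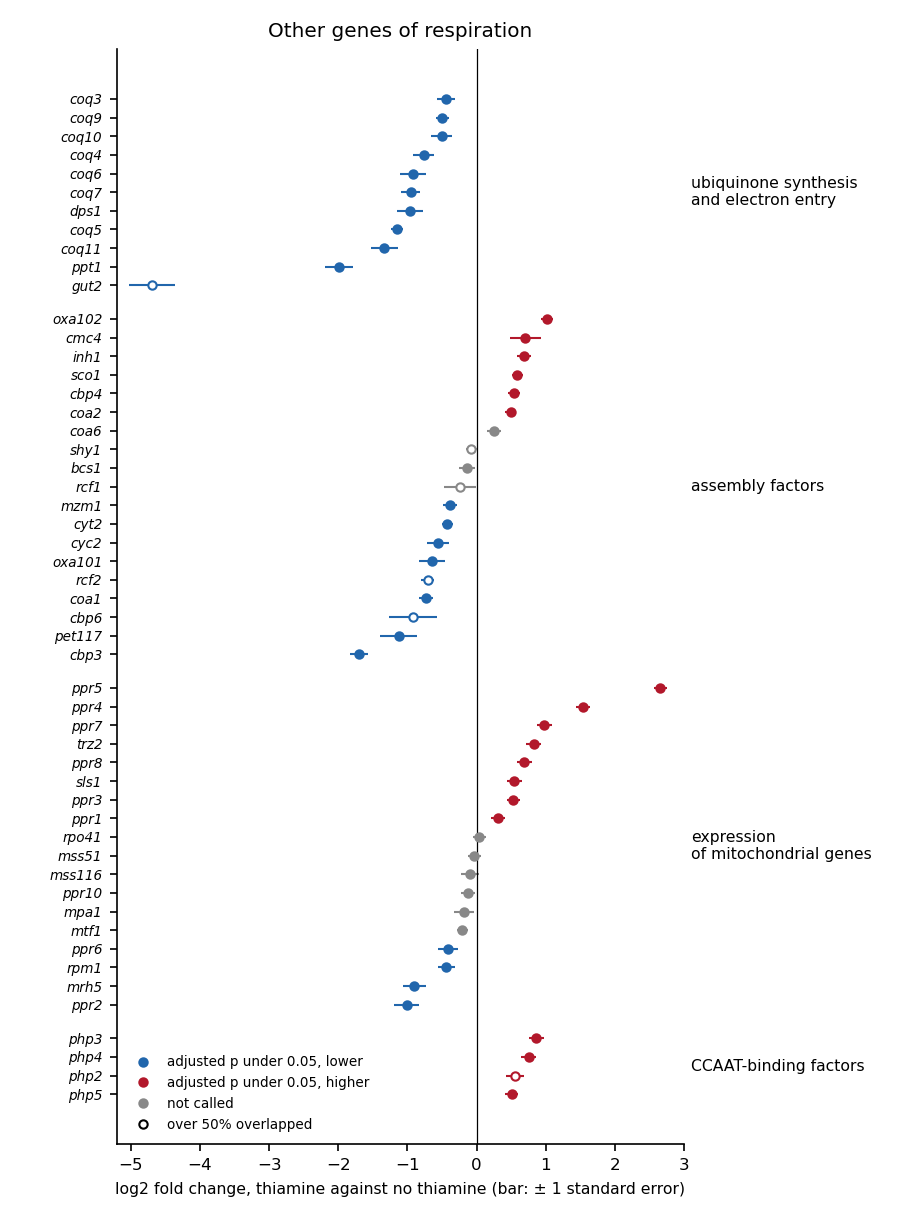
Log2 fold change (x axis, thiamine against no thiamine, TMM) of the 52 tested genes of the 4 further lists, with bars of ± 1 standard error; open symbols mark genes over more than 50% of which other annotated genes lie. All 11 genes of ubiquinone synthesis and electron entry lie below 0 and all 4 CCAAT-binding factors above it, while the other 2 lists hold both.

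Members of the same machinery that the name rule missed were looked up after the files had been read. ndi1, an NADH dehydrogenase like nde1, was at 266, 294 and 244 CPM without thiamine and 328, 339 and 303 CPM with it, a rise of 0.27 ± 0.10 (edgeR adjusted p = 0.0451) where nde1 fell. Under upper quartile scaling ndi1 was at -0.024. tim11, the ATP synthase subunit e beside atp20 in the dimer interface, fell by 0.80 ± 0.10. tim18, annotated as an anchor of succinate dehydrogenase and a part of a protein import complex, was not called (-0.02 ± 0.13, edgeR adjusted p = 0.894).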

How the data were processed

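RNA was extracted with the RNeasy kit after lyticase digestion, and libraries were made with the TruSeq Stranded mRNA kit. The deposited table holds raw read counts per gene, made by the authors. The submitters' processing notes name STAR and DESeq2, whereas the counter and genome build are not given in the sources used here. A second deposited table gave names, positions and transcript lengths (other values, not measured). It also holds the authors' own fold changes and p-values, which were not used.

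Counts of the 6 libraries (3 cultures per group) were filtered with filterByExpr and tested with edgeR 4.0.16 in R 4.3.3 (TMM, robust quasi-likelihood F test, no covariate, Benjamini-Hochberg over all 5434 tested genes, threshold 0.05). The standard error was taken as the fold change divided by the square root of F. On simulated counts of 5382 genes, the fit recovered 84 of 99 genes changed by log2 1 and 95 of 98 changed by log2 2, with 15 false calls. How well the fit recovers genes when 69.8% of those tested are called, as in these libraries, was not tested. Alternatives were DESeq2 1.42.0, other scalings, no filter, no rRNA genes, trends removed, a replicate block and leaving out libraries. Depth limits the members with few counts. Values for all libraries were planned for mitochondrial genes, cyc1, nde1, near-identical copies, the extremes of each complex or list and members against their complex. The members and lists were chosen with earlier results of these data known. From the lists, 2 names were left out because the annotation gives them other functions.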

Additional observations from a re-analysis of the deposited data

How the results depend on the processing

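Of the nuclear members, 31 were called with TMM and 19 with library totals, of which 8 were lower and 11 higher. Upper quartile scaling gave 41 calls, 40 lower and 1 higher. The median of the nuclear members was 0.16 with library totals, -0.71 with upper quartile, -0.33 with the length trend removed and -0.21 with length and GC trends removed. Relative to all tested genes it was -0.26 and -0.17 in the last pair. All tested genes had a median of 0.57 with library totals and -0.31 with upper quartile. Over all genes, higher genes made up 49.5% of the calls after TMM (1877 higher, 1917 lower). They made up 82.2% after scaling by totals (2724 higher, 588 lower) and 34.6% after upper quartile scaling (1368 higher, 2583 lower). The related genes had 5 lower calls with library totals.

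Mitochondrial calls numbered 1 with DESeq2, 1 with the length trend removed, 5 with library totals and 2 with thiamine replicates 2 and 3 left out (chosen after seeing the data). Leaving out 1 library gave 0 to 2, with 2 without no thiamine replicate 3 and 1 without thiamine replicate 2. The cause was not tested.

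Directions turned in 11 of the 52 tested related genes with library totals, 2 with the length trend removed, 1 with length and GC trends removed and 1 with upper quartile, counting genes called under either setting. Among the members and the other genes whose estimates the text discusses singly, they turned as follows. With library totals, log2 fold changes were 0.10 for atp1, 0.25 for qcr8, 0.51 for cox1102, 0.011 for nde1, 0.29 for atp16, 0.14 for cox7, 0.32 for atp15, 0.16 for cox9, 0.11 for cox18, 0.045 for cox19, 0.075 for qcr9, 0.55 for cox13, 0.061 for qcr7, 0.085 for cox14, 0.12 for coq3, 0.071 for coq9, 0.063 for coq10 and 0.54 for tim18. With upper quartile they were -0.27 for sdh6, -0.058 for atp4, -0.29 for atp7, -0.26 for atp14, -0.26 for rpo41 and -0.024 for ndi1. With the length trend removed they were -0.012 for atp25 and -0.32 for rpo41, and with length and GC trends removed 0.25 for cox13, -0.37 for rpo41 and 0.46 for tim18.

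Same-numbered libraries did not deviate together (correlations -0.005, 0.086 and -0.028), so the numbers were not taken as pairs. With the replicate block, 31 nuclear members were called, 29 lower and 2 higher.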
